A study of Mus musculus with 6 samples.

Results

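The 7 genes described here carry short-chain fatty acids into colon cells, sense them there, or activate them for use: Slc16a1, Slc5a8, Ffar2, Ffar3, Hcar2, Bsg and Acsm3. They were taken by name from a list of butyrate transporter, receptor and activation genes, and all 7 had counts among the 19949 genes of the colon libraries. The tissue was colon of BALB/c mice aged 6 to 8 weeks, with 3 libraries from STAT6-/- mice, which lack working STAT6, the transcription factor downstream of the receptors for interleukin-4 and interleukin-13, and 3 from wild-type (WT) mice. Every mouse of both genotypes drank 3% dextran sulfate sodium (DSS), a polymer that injures the colon epithelium, for 3 days. Untreated colons are not analysed here. Whether replicates of a genotype came from different mice is not stated; the p-values below reflect only sample-to-sample spread, which may be partly technical.

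Short-chain fatty acids, mainly acetate, propionate and butyrate, are made by gut bacteria that ferment fibre, and butyrate is the main fuel of the colon epithelium. Slc16a1 encodes the proton-coupled transporter MCT1, Bsg the chaperone basigin that brings MCT1 to the cell surface, and Slc5a8 the sodium-coupled transporter SMCT1 of the luminal membrane. Ffar2 and Ffar3 encode G protein-coupled receptors for short-chain fatty acids (GPR43 and GPR41), and Hcar2 encodes the butyrate and niacin receptor GPR109A. Acsm3 encodes a mitochondrial enzyme that couples butyrate to coenzyme A before it is oxidized.

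Ffar2 rose in the STAT6-/- colons, 3.91-fold over WT, and was the sole gene of the 7 to pass the test. Slc16a1 was 2.05-fold lower there and missed the threshold narrowly. The levels of Slc5a8, Hcar2, Bsg and Acsm3 did not pass the test either, and Ffar3 had too few counts to be tested. Of the 6 genes tested, 1 was called higher and 0 lower, where 22.9% of all 15066 tested genes were called, 11.4% higher and 11.5% lower (quasi-likelihood test of edgeR, p adjusted by Benjamini-Hochberg, threshold 0.05). With p left unadjusted, 1 of the 6 was higher and 1 lower at 0.05. The share of all tested genes at an unadjusted p under 0.05 was not counted and is at least 22.9%. Unadjusted counts, here and below, thus have no matching share to be read against. DESeq2 called 1 of the 6 higher and 1 lower, against 34.0% of all genes called, 18.0% higher and 15.9% lower. A single call among 6 genes is near these shares. In 3 of the 6, Slc16a1, Ffar2 and Bsg, the genotypes did not overlap in any library, against 46.5% of all tested genes. The median log2 fold change of the 6 was 0.22, and that of all tested genes 0.01.

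The libraries held 17122315 to 19555450 estimated read counts. Stat6 itself was at 38.5 to 53.2 CPM (counts scaled to a common library total, with TMM factors between libraries) in STAT6-/- and 88.8 to 104 CPM in WT. The Y-linked gene Ddx3y was at 50.9 to 59.5 CPM in STAT6-/- and 0.0567 to 0.124 CPM in WT, while Xist was at 0.265 to 0.992 CPM in STAT6-/- and 352 to 545 CPM in WT. Genotype and sex therefore cannot be told apart in any comparison here. STAT6-/- replicate 2 stood nearest to WT: its rank correlation with WT replicate 1 was 0.953, against 0.946 and 0.94 with the other STAT6-/- libraries. The protocol names the proximal part of the intestine and then pieces of colon. The small-intestinal genes Sis and Lct were at no more than 0.0933 CPM in STAT6-/- and 0.532 CPM in WT, and the distal colon gene Hoxb13 was at 149 to 454 CPM in STAT6-/- and 247 to 449 CPM in WT. Other regional markers differed more between libraries. Hoxd13 was at 4.48 CPM and Hoxd10 at 0.700 CPM in STAT6-/- replicate 1, against 146 to 185 and 15.4 to 18.3 CPM in the other STAT6-/- libraries and 206 to 278 and 24.5 to 29.1 CPM in WT. The ileal bile acid transporter gene Slc10a2 was at 8.77 to 48.6 CPM in STAT6-/- and 203 to 288 CPM in WT, and the ileal gene Fabp6 at 66.9 CPM in STAT6-/- replicate 3 and 1.54 to 11.0 CPM in the other libraries. Of the small-intestinal markers, Slc10a2 was called lower in STAT6-/- (edgeR adjusted p = 0.0184). Slc5a1 was 1.56-fold and Alpi 5.2-fold higher there (edgeR adjusted p = 0.0339 and just under 0.05). The distal colon marker Retnlb was 23.2-fold higher in STAT6-/- (edgeR adjusted p = 0.023). Of the proximal colon markers, Fxyd4 was 17.1-fold lower and Aqp4 14.4-fold higher in STAT6-/- (edgeR adjusted p = 0.0407 and 0.014). Without STAT6-/- replicate 1 the log2 fold change was 2.06 for Ffar2 and -0.75 for Slc16a1 (edgeR adjusted p = 0.078 and 0.093). The part of the sampled region in the results was not tested.

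The promoters of 2 transporters and 2 receptors are shown, because Slc16a1 and Ffar2 had groups that did not overlap, while Slc5a8 did and Ffar3, the neighbour of Ffar2, was barely detected. Of the 7 genes, 5 matched a promoter entry of RefSeq (GRCm38.p6, the assembly of mm10) by symbol, all but Hcar2 and Bsg. Each window holds 250 bases before and 50 after an annotated start, printed on the strand of the gene, and capitals mark the motif CACGTG.
Slc16a1, chr3:104638414-104638713, plus strand: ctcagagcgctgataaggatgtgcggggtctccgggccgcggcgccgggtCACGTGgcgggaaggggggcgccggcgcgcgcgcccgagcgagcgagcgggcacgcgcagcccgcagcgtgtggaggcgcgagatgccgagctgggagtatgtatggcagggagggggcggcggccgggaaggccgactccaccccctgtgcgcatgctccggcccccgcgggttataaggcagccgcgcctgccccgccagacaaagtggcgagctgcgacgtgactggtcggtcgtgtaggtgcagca
Slc5a8, chr10:88885742-88886041, plus strand: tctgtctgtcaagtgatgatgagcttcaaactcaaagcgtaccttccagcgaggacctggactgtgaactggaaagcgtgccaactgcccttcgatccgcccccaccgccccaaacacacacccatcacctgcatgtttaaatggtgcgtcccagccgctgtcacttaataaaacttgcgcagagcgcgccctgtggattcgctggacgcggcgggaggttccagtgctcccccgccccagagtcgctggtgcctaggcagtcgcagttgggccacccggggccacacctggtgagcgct
Ffar2, chr7:30823726-30824025, minus strand, the farthest upstream of its 4 windows: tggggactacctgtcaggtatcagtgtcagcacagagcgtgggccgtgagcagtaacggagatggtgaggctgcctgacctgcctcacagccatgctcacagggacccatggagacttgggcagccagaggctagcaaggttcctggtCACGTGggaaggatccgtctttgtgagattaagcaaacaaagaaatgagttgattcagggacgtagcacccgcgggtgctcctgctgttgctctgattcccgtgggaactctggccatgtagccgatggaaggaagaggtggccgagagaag
Ffar3, chr7:30856129-30856428, minus strand: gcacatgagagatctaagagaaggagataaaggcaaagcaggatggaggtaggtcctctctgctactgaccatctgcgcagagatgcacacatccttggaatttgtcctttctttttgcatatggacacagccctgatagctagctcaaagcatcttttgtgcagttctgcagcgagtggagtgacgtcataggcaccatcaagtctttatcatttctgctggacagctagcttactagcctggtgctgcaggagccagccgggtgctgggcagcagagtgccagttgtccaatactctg
CACGTG lay in the Slc16a1 window, starting 200 bases before the annotated start, and of the 4 Ffar2 windows only in the printed one. It was chosen as a motif after these sequences had been seen, reads the same on both strands, and occurs in 7.15% of all 32851 windows. The Slc16a1 window was 73.7% G and C, against 60.7% for Slc5a8, 57.0% for Ffar2 and 50.3% for Ffar3. The STAT6 motif, TTC and GAA with 4 bases of any kind between them, and the STAT motif with 3 bases between them each read alike on both strands. They were in 0 of the 8 windows of the 5 genes, and in 6.95% and 8.30% of all windows. A match of letters is a description and marks no binding site.

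Levels per transcript length, in fragments per kilobase of transcript, scaled to sequencing depth (FPKM), set the order of the genes. Bsg led in both genotypes, at 420 ± 77.2 FPKM in STAT6-/- and 310 ± 32.1 in WT (mean ± SD, n = 3 each). Slc16a1 was next, at 64.1 ± 24.1 FPKM in STAT6-/- and 127 ± 7.58 in WT. In WT its lowest library stood above every value of the genes ranked after it, whereas in STAT6-/- its range of 43.4 to 90.6 FPKM overlapped that of Slc5a8 (34.1 to 81.4). Slc5a8 was at 56.1 ± 23.8 FPKM in STAT6-/- and 51.2 ± 6.55 in WT, and Acsm3 at 39.2 ± 24.8 and 69.0 ± 29.7, and these ranges overlapped in both genotypes. Ffar2 followed with 16.5 ± 10.2 FPKM in STAT6-/- and 4.01 ± 1.52 in WT, then Hcar2 with 1.21 ± 0.95 and 0.873 ± 0.431. Ffar3 came last with 0.190 ± 0.0794 FPKM in STAT6-/- and 0.0833 ± 0.0231 in WT.

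**Figure D1:**
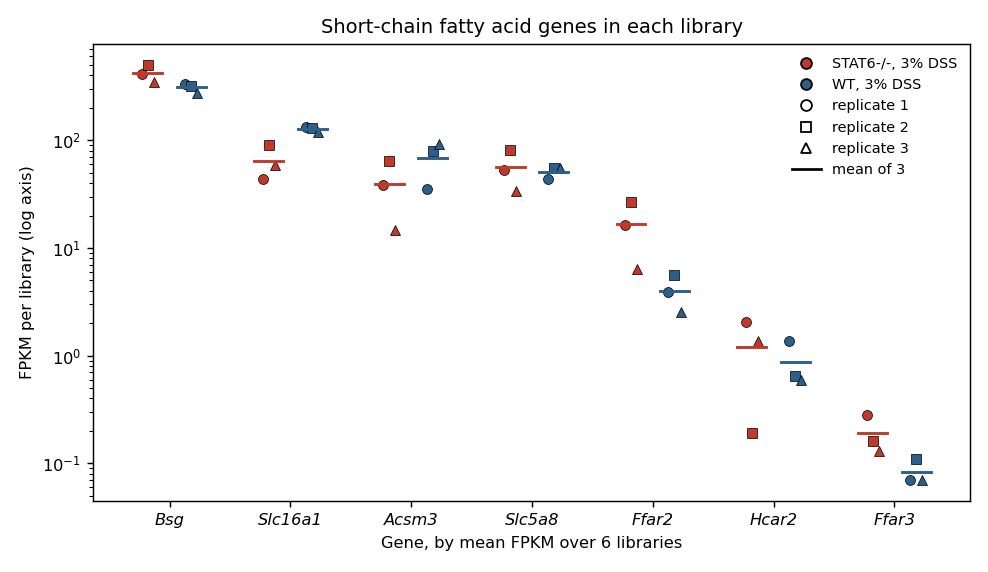
FPKM of the 7 genes in each library on a log axis, STAT6-/- (red) left of WT (blue), with a marker shape for each replicate and a line at the mean of 3. The colours part completely for Slc16a1, Ffar2, Bsg and Ffar3, and mix for Acsm3, Slc5a8 and Hcar2.

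Slc16a1 (NCBI Gene 20501, chromosome 3, 104638664 to 104658462, plus strand, mm10) was lower in every STAT6-/- library than in any WT library. It stood at 177, 408 and 270 CPM in STAT6-/- replicates 1, 2 and 3, against 598, 638 and 515 CPM in WT replicates 1, 2 and 3. The STAT6-/- values spread over more than their lowest value, while the WT libraries lay close together. The log2 fold change was -1.04 ± 0.31 (SE; edgeR adjusted p = 0.0515, unadjusted p = 0.0121). The separation alone was thus common in these data. DESeq2 called Slc16a1 lower (adjusted p = 0.00796), as did 7 of the other 10 settings that kept all libraries, and leaving out STAT6-/- replicate 2 gave -1.36 with an edgeR adjusted p of 0.00927. The other left-out libraries gave edgeR adjusted p from 0.093 to 0.158.

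The tissue was bulk colon, where fewer cells of a type and less RNA per cell cannot be told apart. Summed over 8 epithelial markers, the STAT6-/- libraries held 12983 to 21726 CPM and the WT libraries 8964 to 12710. Of the 8, 1 (Vil1) rose and 0 fell by edgeR, against 11.4% and 11.5% of all tested genes. At an unadjusted edgeR p under 0.05, 4 were higher and 0 lower. DESeq2 called 5 higher and 0 lower, against 18.0% and 15.9% of all tested genes. Krt8 made up the largest part of the epithelial sum, at 5276 to 9447 CPM in STAT6-/- and 3448 to 4784 CPM in WT. The pan-epithelial gene Epcam was at 1562, 2157 and 2130 CPM in STAT6-/- and 1750, 2274 and 1540 CPM in WT. The sum over surface colonocyte markers was 3859 to 6072 CPM in STAT6-/- and 6166 to 8700 CPM in WT. It includes Slc26a3, at 255 to 1608 CPM in STAT6-/- and 2176 to 3373 CPM in WT. It also includes the carbonic anhydrase Car1, at 108 to 224.5 CPM in STAT6-/- and 1500 to 1922 CPM in WT. The genes of this list went in different directions, with Krt20 2.79-fold higher in STAT6-/- and Car1 10.5-fold lower (edgeR adjusted p = 0.026 and 0.00732). DESeq2 called 2 of the 7 tested higher and 2 lower, against 18.0% and 15.9% of all tested genes. The 5 smooth muscle markers summed to 1776 to 4005 CPM in STAT6-/- and 5795 to 7419 CPM in WT, and 4 of them fell, against 11.5% of all tested genes. The adipocyte markers summed to 9.61 to 26.8 CPM in STAT6-/- and 42.8 to 251 CPM in WT. Of the 4 tested, 3 fell by edgeR (Adipoq, Cfd and Fabp4), against 11.5% of all tested genes. The median log2 fold change over the 4 was -3.37. Sums over T cell markers were 91.9, 13.9 and 37.0 CPM in STAT6-/- and 14.6 to 17.5 CPM in WT. Over B cell markers they were 265, 23.3 and 45.3 CPM in STAT6-/- and 27.6 to 42.7 CPM in WT. EdgeR called 1 of the 6 tested T cell and 0 of the 5 B cell markers higher, against 11.4% of all tested genes. DESeq2 called 5 T cell and 2 B cell markers higher, against 18.0%. Neither tool called any of them lower. The part of these marker differences in the results for the 7 genes was not tested.

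Slc5a8 (NCBI Gene 216225, chromosome 10, 88885992 to 88929515, plus strand) differed little between the genotypes. It was at 261, 443 and 190 CPM in STAT6-/- and 240, 321 and 291 CPM in WT, so that the WT values fell within the STAT6-/- range. The log2 fold change was 0.07 ± 0.32 (SE; edgeR adjusted p = 0.888). That error leaves room for a moderate change in either direction, and the value ran from -0.30 without STAT6-/- replicate 2 to 0.36 without STAT6-/- replicate 3.

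Bsg (NCBI Gene 12215, chromosome 10, 79704358 to 79711979, plus strand) was slightly higher in every STAT6-/- library. It was at 524, 706 and 505 CPM in STAT6-/- against 479, 488 and 375 CPM in WT. The smallest STAT6-/- value and the largest WT value were close, and the log2 fold change of 0.37 ± 0.21 (SE) did not pass (edgeR adjusted p = 0.232). Of its transcripts in the files, the shorter one, which encodes the basigin form of most tissues, made up 97.7%, 98.1% and 95.8% of the Bsg counts in STAT6-/- and 96.7%, 96.8% and 96.2% in WT. The longer transcript, known from retina, held the rest, and its share overlapped between the genotypes.

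Ratios within a library need no scaling between libraries, and both ratios described here parted the genotypes. The FPKM ratio of Slc16a1 to Bsg, transporter to chaperone, was 0.106, 0.18 and 0.167 in STAT6-/- and 0.391, 0.409 and 0.431 in WT. All 3 STAT6-/- values lay below all WT values, with means of 0.151 ± 0.0399 in STAT6-/- and 0.411 ± 0.0199 in WT (SD, n = 3 each), a 2.79-fold difference. The ratio of Slc5a8 to Slc16a1 was 1.22, 0.898 and 0.585 in STAT6-/- and 0.332, 0.417 and 0.467 in WT. Its geometric mean was 2.15-fold higher in STAT6-/-. MCT1 transcripts exceeded SMCT1 transcripts per length in every WT library, and also in STAT6-/- replicates 2 and 3, where the ratio was 0.898 and 0.585. For each of these 2 ratios an exact two-sided permutation test on the log2 ratio gave p = 0.1 (also 0.1 adjusted over both by Benjamini-Hochberg), the smallest p that 3 libraries against 3 allow. The ratios share Slc16a1 and are not independent of each other. Slc16a1 was lower and Bsg higher in every STAT6-/- library than in any WT library. Their ratio therefore had to part the genotypes, and its p adds nothing to the values of the 2 genes.

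**Figure D2:**
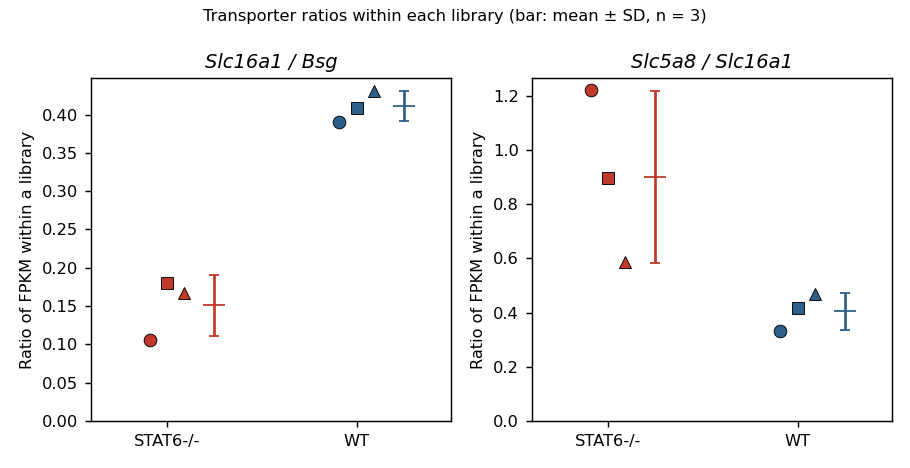
FPKM ratios of Slc16a1 to Bsg and of Slc5a8 to Slc16a1 in each library, STAT6-/- left of WT, with circles, squares and triangles for replicates 1, 2 and 3 and a bar for the mean ± SD (n = 3). No STAT6-/- library reaches the WT range in either ratio: the highest Slc16a1 to Bsg value in STAT6-/- is 0.18 and the lowest in WT 0.391.

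Ffar2 (NCBI Gene 233079, chromosome 7, 30818031 to 30823775, minus strand) rose. It was at 32.1, 56.8 and 14.0 CPM in STAT6-/- replicates 1, 2 and 3, against 8.69, 12.4 and 5.22 CPM in WT replicates 1, 2 and 3. The groups did not overlap, but STAT6-/- replicate 3 was only just above WT replicate 2. The log2 fold change was 1.97 ± 0.54 (SE; edgeR adjusted p = 0.0416), with means of 34.3 ± 21.5 CPM in STAT6-/- and 8.77 ± 3.6 in WT (SD, n = 3 each). The call held with DESeq2 (adjusted p = 0.00142) but not with limma-voom (0.0781), and it was lost when any single library but STAT6-/- replicate 3 was left out (edgeR adjusted p from 0.0533 to 0.146).

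Neutrophils, macrophages and enteroendocrine cells are known to carry Ffar2 besides the epithelium, and their markers were read beside it. STAT6-/- replicate 2, with the highest Ffar2 value, had the lowest STAT6-/- sums of the 7 neutrophil markers (20.1 CPM, against 75.7 and 92.4 in STAT6-/- replicates 1 and 3 and 11.4 to 40.3 in WT) and of the 7 macrophage and monocyte markers (515 CPM, against 1383 and 1069 and 392.2 to 585 in WT). It also had the largest STAT6-/- sum of the 7 enteroendocrine markers, 566 CPM. That sum was 216 CPM in STAT6-/- replicate 1 and 528 CPM in replicate 3, where Ffar2 was at 32.1 and 14.0 CPM. In WT replicates 1, 2 and 3 it was 474, 623 and 447 CPM, with Ffar2 at 8.69, 12.4 and 5.22 CPM. The part of these cell types in the Ffar2 result was not tested. By edgeR, 1 of the 5 tested neutrophil markers, Retnlg, and 1 of the 7 macrophage markers, Cd14, rose, and 0 of either list fell. Of the 7 enteroendocrine markers, Gcg and Cck rose and Insl5 fell. Over all tested genes, 11.4% were called higher and 11.5% lower. DESeq2 called Csf3r and Retnlg of the neutrophil markers and Cd14, Cd68 and Csf1r of the macrophage markers higher. Its enteroendocrine calls were the same as by edgeR. DESeq2 called 18.0% of all tested genes higher and 15.9% lower. No neutrophil, macrophage or enteroendocrine marker was at 0 over the libraries of either genotype.

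Counts of Ffar2 were spread over 5 transcripts. The one most abundant in 5 of the 6 libraries held 57.4%, 53% and 53% of the Ffar2 counts in STAT6-/- and 70.5%, 37.8% and 56.9% in WT. The other transcripts were listed at 0 in some libraries and not in others within a genotype, so the division of reads among them is uncertain and the sum per gene was used.

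Ffar3 (NCBI Gene 233080, chromosome 7, 30854330 to 30856178, minus strand) lies 30555 bases from Ffar2 on the same strand and was barely detected. It had 9, 5 and 4 counts in STAT6-/- and 2, 3 and 2 counts in WT, where an absent gene is allowed up to 3 counts per library. Summed, these were 18 counts against 7, a ratio per library size of 2.28 with an exact 95% interval of 0.909 to 6.46 that covers counting error only. Every STAT6-/- count was above every WT count, and only the STAT6-/- counts exceeded 3. Counts this low left a difference in Ffar3 undecided. Ffar2 had 688, 1087 and 265 counts in STAT6-/- and 147, 200 and 92 in WT.

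Hcar2 (NCBI Gene 80885, chromosome 5, 123863570 to 123865516, minus strand) was low and uneven. It was at 3.69, 0.366 and 2.75 CPM in STAT6-/-, against 2.72, 1.37 and 1.13 CPM in WT. STAT6-/- replicate 2 held the lowest value of all 6 libraries, with 7 counts, and the groups overlapped. The log2 fold change of 0.38 ± 0.77 (SE; edgeR adjusted p = 0.73) has an error larger than itself, and it was -0.03 with limma-voom and -0.13 without STAT6-/- replicate 1. Ffar2 and Hcar2 thus went opposite ways in STAT6-/- replicate 2, where Ffar2 was highest and Hcar2 lowest.

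Acsm3 (NCBI Gene 20216, chromosome 7, 119760883 to 119784896, plus strand) varied within both genotypes. It was at 91.4, 168 and 39.2 CPM in STAT6-/-, against 93.6, 227 and 233 CPM in WT. WT replicate 1 lay among the STAT6-/- values, and the log2 fold change of -0.89 ± 0.56 (SE) did not pass (edgeR adjusted p = 0.269). It ran from -1.46 without STAT6-/- replicate 2 to -0.46 without STAT6-/- replicate 3. Of its 3 transcripts in the files the most abundant held 66.5%, 65.3% and 77.8% of the Acsm3 counts in STAT6-/- and 64.2%, 59.3% and 58.6% in WT, values that did not overlap and were not tested. In GENCODE M21 Acsm3 overlaps Eri2 on the other strand and, since strand-specific counting is not stated, reads of both cannot be told apart in the overlap. Slc16a1 overlaps 2 intronic noncoding entries on its own strand.

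The genes most like each of the 6 tested genes (Ffar3 was not tested) over the 6 libraries, by Pearson correlation of log2 CPM, are a description with no test, since the libraries share genotype, sex and treatment. Slc16a1 was most like Pik3r3 (r = 0.997), Ube2r2 (0.997) and Unc119 (0.996), and 400 of 15065 genes had an r of 0.95 or more with it. Slc5a8 was most like Casd1 (0.983), Map3k5 (0.981) and Tmem238 (0.980), and Ffar2 was most like Kmt5a (0.998), Slc25a10 (0.997) and Mllt1 (0.996). Bsg was most like Kdf1 (0.993), Esrra (0.989) and Ptpn18 (0.988). Hcar2 was most like Rxrg (0.984), Tuba1a (0.977) and Dram1 (0.977), and Acsm3 was most like 1700030K09Rik (0.988), Hdac8 (0.987) and D2hgdh (0.983). The numbers with an r of 0.95 or more were 117 for Ffar2, 60 for Bsg, 50 for Acsm3, 26 for Slc5a8 and 13 for Hcar2. Such a pattern was thus shared by many genes for Slc16a1 and by few for Hcar2.

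Of 45 other genes listed for transport, sensing, activation, oxidation, ketone bodies and histone deacetylases, 36 were tested, 3 rose and 7 fell (edgeR adjusted p below 0.05), against 11.4% higher and 11.5% lower among all tested genes. Their median log2 fold change was -0.11, against 0.01 over all tested genes. Of the 7 that fell, 6 were in the oxidation and ketone body lists, which hold 16 of the 36 tested genes.

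**Figure D3:**
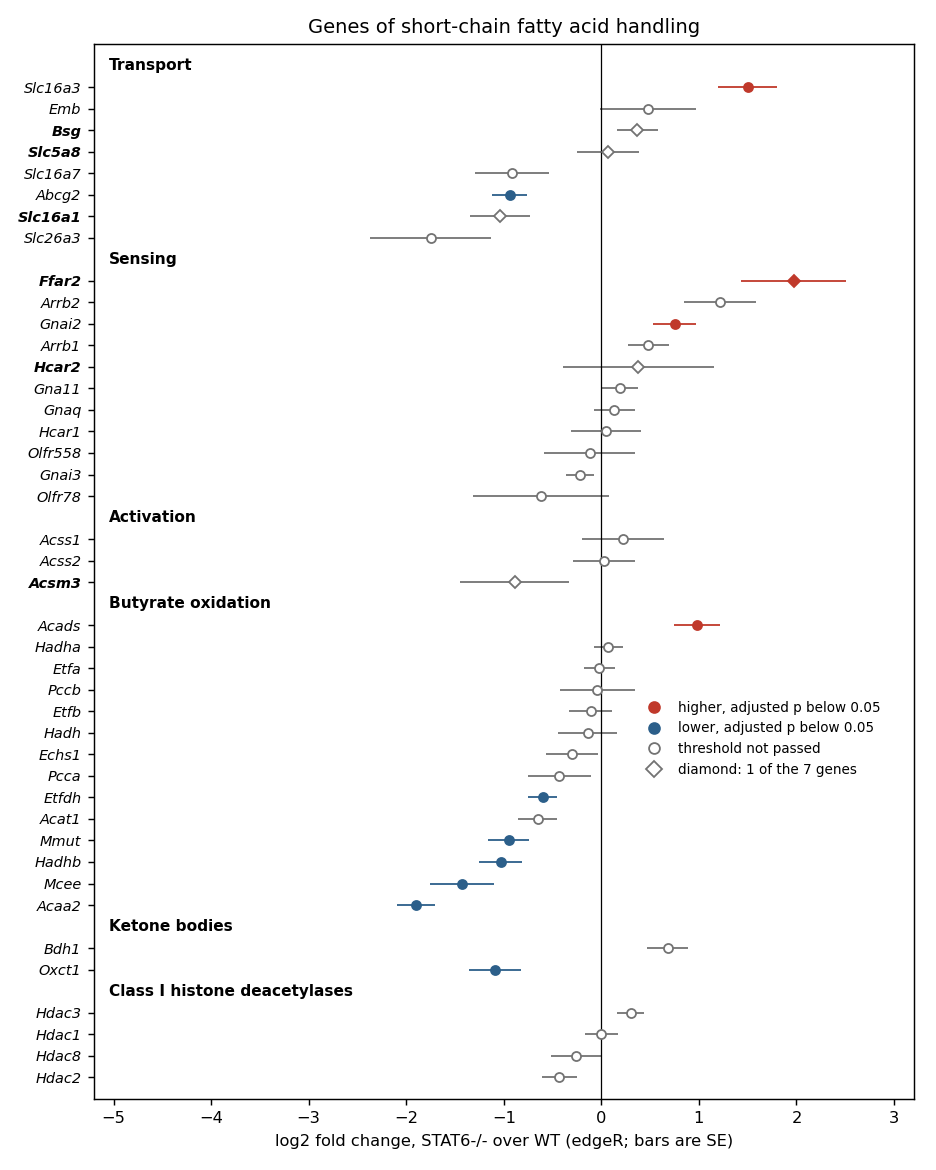
log2 fold changes of STAT6-/- over WT with SE for the tested genes of each list, the 6 tested of the 7 genes as diamonds with bold names. Filled red or blue symbols passed the test upward or downward: Ffar2 and 3 other genes are red, and the blue ones lie mainly in oxidation, down to -1.90 for Acaa2.

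Among 8 other transport genes, 5 were tested, 1 rose and 1 fell, against 22.9% called among all tested genes. Slc16a3, the lactate exporter MCT4 that also needs basigin, rose 2.83-fold, with 37.0, 59.5 and 84.6 CPM in STAT6-/- against 19.8, 20.5 and 23.8 CPM in WT (log2 fold change 1.5 ± 0.30 SE, edgeR adjusted p = 0.0188). Abcg2, an efflux pump of the luminal membrane, was 1.92-fold lower and fell, with 54.4, 81.1 and 66.0 CPM in STAT6-/- against 134, 134 and 119 CPM in WT (-0.94 ± 0.18 SE, edgeR adjusted p = 0.0171). MCT4 and MCT1 transcripts thus lay on opposite sides of WT, although only the first passed. Slc26a3, the chloride-bicarbonate exchanger of surface colonocytes and the most abundant of these genes, was at 738, 1608 and 255 CPM in STAT6-/- and 3187, 3373 and 2176 CPM in WT. It was 3.36-fold lower without passing the edgeR test (adjusted p = 0.0799), while DESeq2, the replicate block and the fit without STAT6-/- replicate 2 called it lower. Slc5a12, the relative of Slc5a8 named SMCT2, and Slc16a8 had too few counts to be tested.

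Among 10 other sensing genes, 9 were tested, 1 rose and 0 fell, which is near the 11.4% called higher among all tested genes. It was Gnai2, the inhibitory G protein subunit to which these receptors couple and the most abundant of the list, with 471, 359 and 588 CPM in STAT6-/- and 292, 298 and 254 CPM in WT. Its log2 fold change was 0.75 ± 0.22 (SE; edgeR adjusted p = 0.0498), and the call was lost with limma-voom, with upper quartile scaling, with a replicate block and without any library but STAT6-/- replicate 2. Unadjusted, 2 of the 9 were higher and 0 lower at p under 0.05, and DESeq2 called 2 and 0, the other being the arrestin gene Arrb2. Among 7 other activation genes 2 were tested, the acetate-activating Acss1 and Acss2, and 0 passed in either direction by edgeR, adjusted or not (0 also by DESeq2). Acss2, the more abundant, was at 106, 266 and 164 CPM in STAT6-/- and 174, 195 and 156 CPM in WT.

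The list for butyrate and propionate oxidation also holds genes of wider fatty acid oxidation, such as Hadha and Hadhb. All 14 of its genes were tested, and 1 rose while 5 fell, against 11.4% and 11.5% of all tested genes. Acads, the short-chain acyl-CoA dehydrogenase that takes the first step of butyryl-CoA oxidation, rose 1.98-fold, with 129, 159 and 84.6 CPM in STAT6-/- against 65.6, 67.8 and 55.0 CPM in WT (edgeR adjusted p = 0.0309). Acaa2, a mitochondrial thiolase, was at 34.6, 50.3 and 37.2 CPM in STAT6-/- against 134, 159 and 162 CPM in WT. It fell by 1.90 on the log2 scale (SE 0.19, edgeR adjusted p = 0.00828), and its STAT6-/- values were all far below WT. Hadhb, the beta subunit of the trifunctional protein and the most abundant of the list, was at 158, 224 and 138 CPM in STAT6-/- against 316, 388 and 360 CPM in WT (log2 fold change -1.03, edgeR adjusted p = 0.0227). Its partner Hadha did not pass, at a log2 fold change of 0.07 ± 0.15 (SE). Etfdh, which passes electrons from these dehydrogenases to ubiquinone, fell with a log2 fold change of -0.60 (edgeR adjusted p = 0.0331), a call lost in 4 of the 11 other settings with all libraries and without any library but STAT6-/- replicate 2. Mcee and Mmut, the epimerase and mutase that finish the propionate route, fell with log2 fold changes of -1.43 and -0.95 (edgeR adjusted p = 0.0275 and 0.0253). Echs1 (-0.30), Hadh (-0.14), Acat1 (-0.65), Etfa (-0.02), Etfb (-0.11), Pcca (-0.43) and Pccb (-0.04) did not pass (edgeR adjusted p from 0.055 to 0.942). DESeq2 called Acat1 lower.

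Of 2 ketone body genes, 0 rose and 1 fell by edgeR, against 11.4% and 11.5% of all tested genes. DESeq2 called 1 higher and 1 lower, against 18.0% and 15.9%. Oxct1, which starts ketone body use and is the more abundant, was at 209, 399 and 369 CPM in STAT6-/- against 630, 749 and 701 CPM in WT (-1.09 ± 0.27 SE on the log2 scale, edgeR adjusted p = 0.0314). Every STAT6-/- library lay below every WT library. Bdh1, which interconverts the 2 main ketone bodies, was at 149, 174 and 110 CPM in STAT6-/- and 101, 93.2 and 74.9 CPM in WT, and did not pass (log2 fold change 0.68, edgeR adjusted p = 0.0584), while DESeq2 called it higher. Of the 4 class I histone deacetylases, enzymes that butyrate inhibits, 0 passed in either direction by edgeR, against 22.9% of all tested genes. With p left unadjusted the edgeR count was also 0, and DESeq2 called 0, against 34.0%. Hdac1, the most abundant, was at 143, 116 and 109 CPM in STAT6-/- and 117, 139 and 111 CPM in WT.

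**Figure D4:**
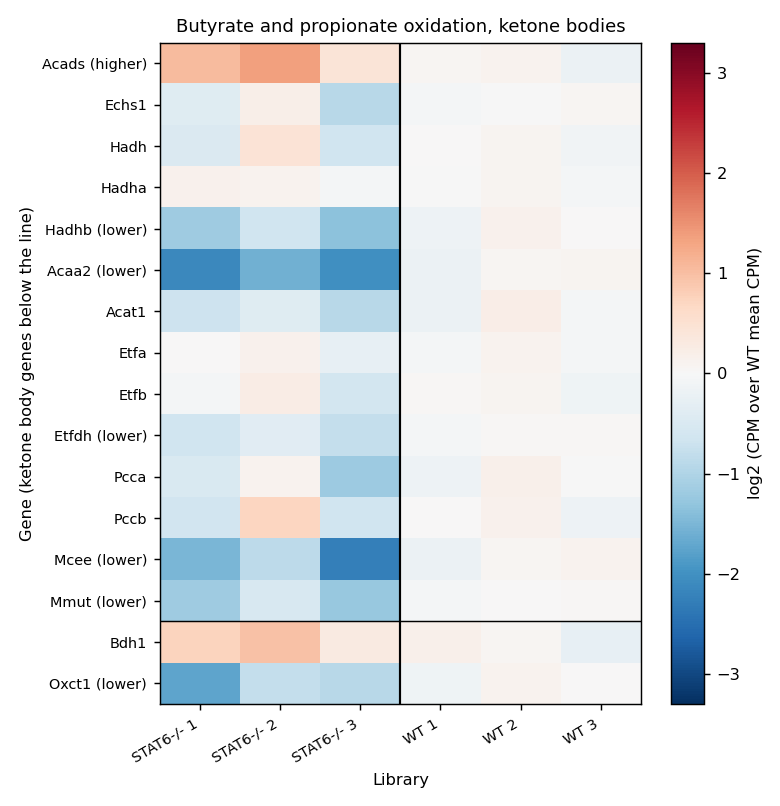
log2 of CPM over the WT mean for 14 genes listed for butyrate and propionate oxidation and 2 for ketone bodies (below the line), in each STAT6-/- library (left) and WT library (right). Acaa2 is blue in all 3 STAT6-/- libraries and Acads is red, while STAT6-/- replicate 2 is the nearest STAT6-/- library to WT for each gene that fell.

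The pathway calls leaned on single libraries as the calls of all genes did. Without WT replicate 1, 2 or 3 the counts of these 45 genes that rose were 0, 0 and 0, and of those that fell 1, 0 and 0, while edgeR without adjustment gave 6, 5 and 4 higher and 8, 7 and 9 lower. Without STAT6-/- replicate 1, 2 or 3 the counts were 2, 4 and 3 higher and 3, 12 and 5 lower. Acaa2 was called in every case except without WT replicate 2 or 3. DESeq2, with all libraries, called 5 higher and 9 lower.

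**Figure D5:**
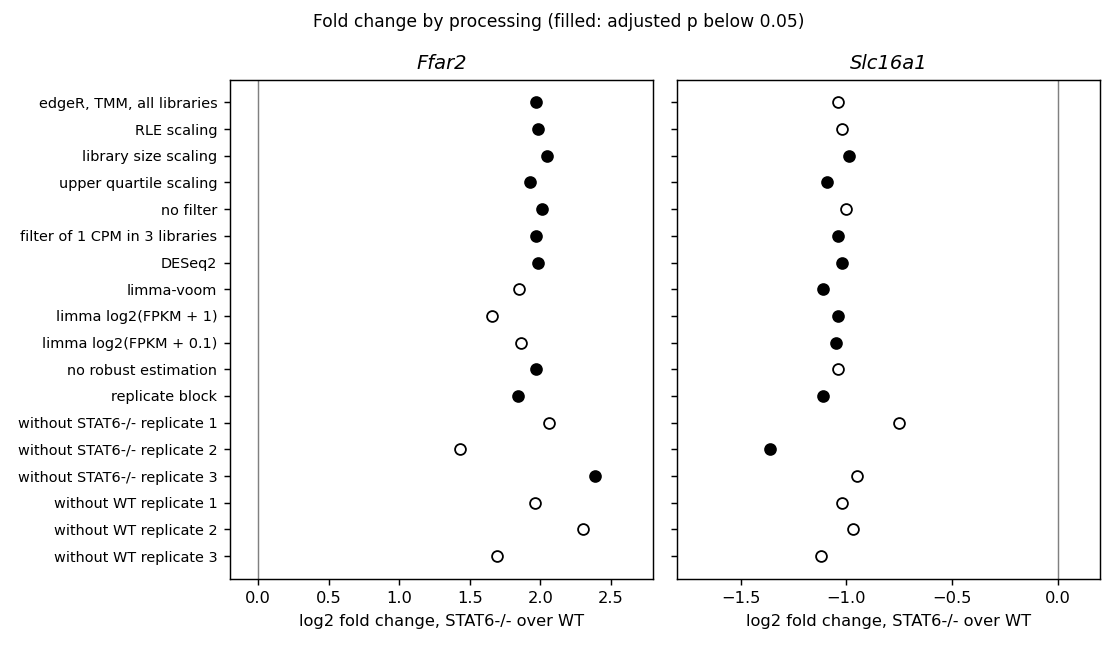
log2 fold change of Ffar2 and Slc16a1 under each way of processing, filled where the adjusted p was below 0.05. Ffar2 stays between 1.43 and 2.39 and Slc16a1 between -1.36 and -0.75, while the side of the threshold changes for both.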

How the data were processed

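Colon mRNA was measured in 3 STAT6-/- and 3 WT libraries after DSS. The expected counts (estimated reads per RefSeq transcript, not normalized between libraries) and the FPKM (scaled to transcript length and mapped fragments) were deposited by the authors, per the file headers. The submitters' processing notes list the tools RSEM 1.2.12 and Bowtie2 2.2.5 and the build mm10. Transcripts under an FPKM of 0.01 are not listed and were taken as 0. Strand-specific counting is not given in the sources used here.

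Expected counts were summed per gene and rounded. RefSeq (GRCm38.p6) named 27986 of 28238 transcripts and GENCODE M21 named 149. No name was found for 103, which held 0.167% of counts. The comparison used edgeR 4.0.16 under R 4.3.3, with TMM, filterByExpr, robust quasi-likelihood F test, Benjamini-Hochberg over 15066 genes. SE is the log2 fold change over the square root of F. Correlations used log2 CPM with a prior count of 2. Ratios had an exact permutation test. On simulated data (200 of 15066 genes changed) 14% of 2-fold and 90% of 4-fold changes were recovered, with 5 false calls. The simulation gave every gene and both genotypes the same dispersion. In the real data 22.9% of genes were called, so these rates may not carry over.

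The 7 genes and all lists were chosen with earlier results of these data known. Every gene of the pathway lists that passed and the most abundant of each such list are named, as are the 3 genes most like each of the 6 tested. Of the cell type and region markers, some are named. A few further markers and Arrb2, Hadha, Echs1, Hadh, Acat1, Etfa, Etfb, Pcca, Pccb, Bdh1, Acss1, Slc5a12 and Slc16a8 were named after their values were seen. Some listed genes are not reported here. Alternatives tried were scaling by upper quartile, RLE or library size, a filter of 1 CPM in 3 libraries or none, DESeq2 1.42.0, limma-voom 3.58.1, limma on log2 FPKM plus 1 or 0.1 (mean FPKM of at least 0.1), no robust estimation, a replicate block, and each library left out.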

Additional observations from a re-analysis of the deposited data

How the results depend on the processing

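With all libraries kept, Bsg, Acsm3, Ffar2 and Slc16a1 had the same direction in each of the 11 other settings. The Ffar2 log2 fold change was 1.85 with limma-voom, 1.66 with log2(FPKM + 1) and 1.86 with log2(FPKM + 0.1), where 0 of the 7 genes passed upward. Slc16a1 passed downward, the 1 such gene, at -0.99 with library size scaling, -1.09 with upper quartile scaling, -1.04 with a filter of 1 CPM, -1.02 with DESeq2, -1.11 with limma-voom, -1.04 and -1.05 with log2 FPKM plus 1 and plus 0.1, and -1.11 with a replicate block. Slc5a8 turned to -0.01 with limma-voom and with the replicate block, and Hcar2 to -0.03 with limma-voom. DESeq2 called 2713 genes higher. Of the other pathway genes, 5 rose with library size scaling and 5 with DESeq2, against 3. Across the other settings with all libraries, 15.8% to 34.0% of all tested genes were called. Leaving out STAT6-/- replicate 2 put Slc5a8 at -0.30, leaving out WT replicate 1 put it at -0.04, and leaving out STAT6-/- replicate 1 put Hcar2 at -0.13.

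With 1 library left out, the log2 fold changes ran from 1.43 to 2.39 for Ffar2, -1.36 to -0.75 for Slc16a1, -0.30 to 0.36 for Slc5a8, -0.13 to 0.91 for Hcar2, 0.23 to 0.51 for Bsg and -1.46 to -0.46 for Acsm3. From 0 to 1 of the 7 genes was called higher and 0 to 1 lower, 0 to 4 and 0 to 12 of the other pathway genes, and 12 to 2750 and 6 to 2440 of all genes. The log2 ratio differences ran from -1.62 to -1.24 (Slc16a1 to Bsg) and from 0.85 to 1.38 (Slc5a8 to Slc16a1). The cause of these shifts was not tested. Whether replicate numbers pair the samples was not settled. Same-numbered deviations correlated at 0.023, 0.0445 and 0.134, and differently numbered ones at -0.109 to 0.0544. Most samples, but not all, correlated best with their own number. The replicate block called 1219 genes higher and 1445 lower, against 1718 and 1731. Depth limits Ffar3, with 2 to 9 counts, and Hcar2, with 7 to 79.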
